A study of Rattus norvegicus with 6 samples.

Results

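The sarcoplasmic reticulum is the calcium store of muscle cells, and 10 genes of that store and of its refilling were described in cells of the rat brain vasculature. They were chosen by name, as genes that code for parts of the store: the luminal buffers Casq2 and Srl, the pumps Atp2a2 and Atp2a3 with their regulator Pln, the release channels Ryr2, Ryr3 and Itpr1, and the store-operated entry pair Stim1 and Orai1. The choice was made with earlier results of these data known, so comparing the members with all genes is a description, not a test. All 10 were found among the 14607 genes of the series. The RNA-Seq data compare vascular smooth muscle cells (VSMCs) of cortical arterioles with mid-capillary pericytes (mcPCs) of the same cortices, 3 samples of each, and ask which genes set the mural cells of the arteriole apart from those of the capillary bed.

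All 6 samples came from the brain cortex of male Sprague-Dawley rats aged 4 to 5 weeks, with the cortices of several rats pooled in each isolation. The labels DN, DL and DK, which occur once in each cell type, are taken as the isolations. VSMCs were sorted positively with a fluorescent Griffonia lectin from arterioles held back by a filter, after removal of CD31- and CD11b-positive cells. mcPCs were what remained of the filtrate once cells positive for CD31, CD11b, GLAST or O4 had been removed, so no marker of their own selected them. RNA integrity numbers lay between 6.4 and 8.5. Polyadenylated RNA was sequenced with strand-specific libraries, and the reads assigned to genes came on average to 62.0 M in a VSMC sample and to 48.0 M in a mcPC sample.

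The values used are the authors' means of each cell type, without a value for single samples. No spread between isolations can therefore be given, no test was made, and every difference below is a description. Intervals are 95% intervals of counting error only, taken from the reads summed over the 3 samples, and they do not cover the difference between isolations. TPM is transcript abundance corrected for length and scaled to the same total in each sample, and is used to compare genes within a cell type. Normalized counts, which the authors scaled with DESeq2, are used to compare the cell types, as the log2 ratio of mcPCs over VSMCs, so that a negative ratio means more mRNA in VSMCs. Reads give the depth behind both. A gene was counted as higher in a cell type from a 2-fold ratio on.

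In smooth muscle the store takes up calcium through SERCA pumps, holds it on low-affinity binding proteins in its lumen, and gives it back to the cytoplasm through ryanodine receptors and inositol trisphosphate (IP3) receptors. Local release through ryanodine receptors, the calcium spark, opens large-conductance potassium channels of the plasma membrane and relaxes the arteriole, whereas release through IP3 receptors follows vasoconstrictor receptors and adds to contraction. When the store empties, STIM proteins of its membrane sense the loss of luminal calcium and open ORAI channels of the plasma membrane, a route that most cell types share.

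Of the 10 genes, 8 were at least 2-fold higher in VSMCs, Stim1 was between the limits and Orai1 was at least 2-fold higher in mcPCs. Among all 14607 genes, 13.9% were at least 2-fold higher in VSMCs and 22.0% at least 2-fold higher in mcPCs. Of the members, 7 were at least 4-fold higher in VSMCs, a level that 5.72% of all genes reached. The median log2 ratio was -3.11 over the members and 0.01 over all genes. The ratios ran from -8.91 for Srl to 1.06 for Orai1. Casq2, Pln and Srl lay below -8, Ryr2, Atp2a2, Atp2a3, Itpr1 and Ryr3 lay between -3.96 and -1.59, and Stim1 and Orai1 lay closest to 0. In RNA from a whole sorted fraction, fewer cells of a type and less RNA per cell cannot be told apart.

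**Figure D1:**
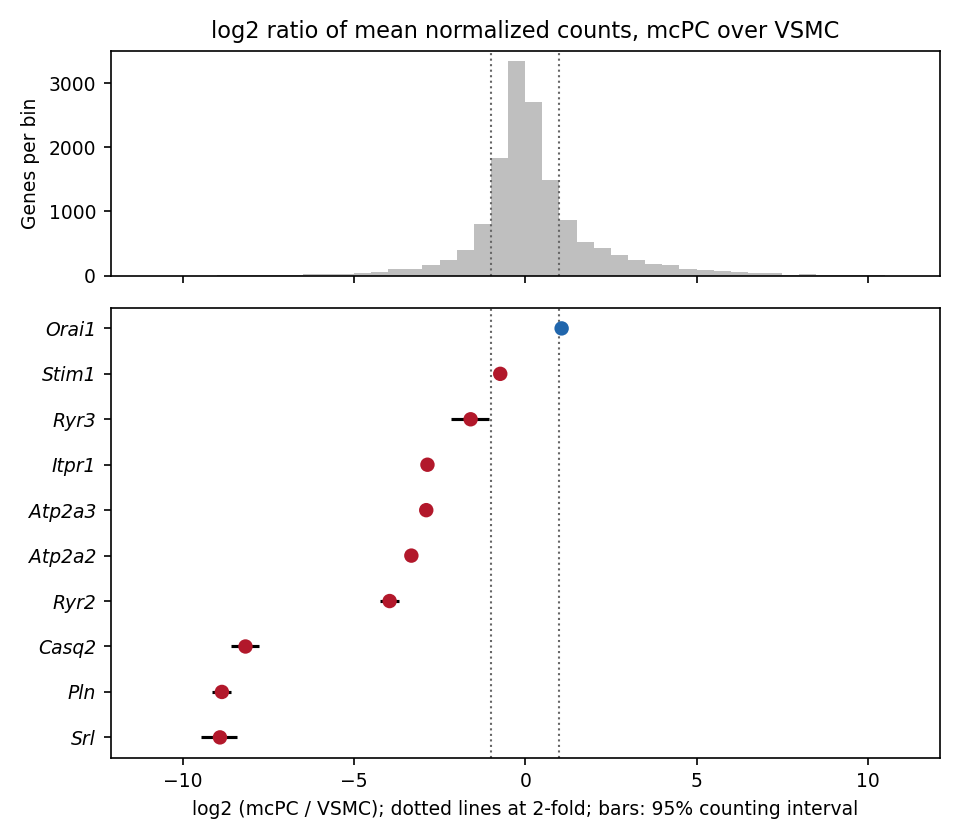
Upper panel, number of genes per bin of the log2 ratio of the authors' mean normalized counts (mcPC over VSMC) for all 14607 genes. Lower panel, the same ratio for each of the 10 store genes, with 95% counting intervals as bars and dotted lines at 2-fold. Srl, Pln and Casq2 lie between -8.91 and -8.16, in the sparse left tail of the histogram, and Orai1 is the only member right of 0.

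Among the luminal buffers, Casq2, the calsequestrin of cardiac and smooth muscle, had 102.7 TPM in VSMCs against 0.107 TPM in mcPCs. These means rest on 29205 reads over the 3 VSMC samples and 54 reads over the 3 mcPC samples. The log2 ratio of normalized counts was -8.16 (counting interval -8.58 to -7.78), a 287-fold lower level in mcPCs. The ratio of Casq2 ranked 15 from the lowest among all genes.

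Srl codes for sarcalumenin, a calcium-binding glycoprotein of the reticulum lumen. Its mean abundance was 49.0 TPM in VSMCs against 0.0310 TPM in mcPCs, from 29106 and 32 reads over the 3 samples. The log2 ratio of normalized counts was -8.91 (counting interval -9.46 to -8.41), or 481-fold lower in mcPCs, the fifth lowest of all genes. Casq2 and Srl had almost the same number of reads in VSMCs, and Casq2 was the more abundant per length because its effective length is 2322 bases, against 4860 for Srl.

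Pln codes for phospholamban, the small membrane protein that holds SERCA back until it is phosphorylated. It had 386.8 TPM in VSMCs against 0.255 TPM in mcPCs, from 96797 and 115 reads over the 3 samples. The log2 ratio of normalized counts was -8.85 (counting interval -9.13 to -8.59), a 463-fold lower level in mcPCs, next to Srl in the order of all genes. The counting intervals of Srl and Pln overlap, so their order is not resolved by the reads.

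These 3 genes were set beside the contractile genes that mark smooth muscle. Normalized counts in mcPCs were 0.208% of the VSMC value for Srl, 0.216% for Pln and 0.348% for Casq2. Among 12 smooth muscle markers the same share ran from 0.306% for Myh11, the smooth muscle myosin heavy chain, to 28.6% for Cald1 (caldesmon), so that Srl and Pln lay below all of them. The most abundant markers in VSMCs, Tagln (transgelin) and Acta2 (smooth muscle actin), had shares of 0.385% and 0.393%, close to that of Casq2, while Myl9, a myosin light chain, kept 6.27%. All 12 markers were at least 2-fold higher in VSMCs, with log2 ratios from -8.35 to -1.81, and their summed abundance was 59472 TPM in VSMCs against 440.5 TPM in mcPCs. The sums are parts of a TPM total of which erythrocyte transcripts held 66.3% in mcPCs and 0.873% in VSMCs. RNA of VSMCs carried into the mcPC samples, as a part of the reads of Casq2, Srl and Pln there, was not tested.

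The pumps were abundant in VSMCs and kept a clear level in mcPCs. Atp2a2, the SERCA2 pump of muscle and of most other cells, had 1089 TPM in VSMCs, more than 99.1% of all genes, and 30.8 TPM in mcPCs, still more than 92.0% of the genes there. With 600339 and 32420 reads over the 3 samples, its log2 ratio of normalized counts was -3.32 (counting interval -3.34 to -3.31), and the normalized count in mcPCs was 9.99% of that in VSMCs. Atp2a2 was the most abundant of the 10 genes in each cell type and made up 52.0% of their summed TPM in VSMCs and 41.6% in mcPCs.

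Atp2a3, the SERCA3 pump, which has a lower affinity for calcium, had 184.5 TPM in VSMCs against 7.29 TPM in mcPCs. Its log2 ratio of normalized counts was -2.89 (counting interval -2.92 to -2.85), 7.41-fold lower in mcPCs and within 1 log2 unit of the ratio of Atp2a2. The pump and its inhibitor differed from each other far more. The TPM of Pln was 0.355 times that of Atp2a2 in VSMCs and 0.00827 times in mcPCs, a 42.9-fold difference in the ratio, which as a ratio within a cell type does not depend on the scaling between the cell types.

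Ryanodine receptors, the channels of calcium sparks, were scarce in both fractions. Ryr2, the cardiac type, had 1.93 TPM in VSMCs against 0.0368 TPM in mcPCs, from 3493 and 119 reads over the 3 samples. Its log2 ratio of normalized counts was -3.96 (counting interval -4.23 to -3.69), 15.5-fold lower in mcPCs. Although strongly on the side of VSMCs, Ryr2 was more abundant there than only 23.6% of all genes. Ryr3, often called the brain type, had 0.111 TPM in VSMCs against 0.0103 TPM in mcPCs. Its 198 reads in VSMCs are the fewest of any member, and its 32 reads in mcPCs are as few as those of Srl. Its log2 ratio of -1.59 has a counting interval of -2.18 to -1.05, which lies wholly on the side of VSMCs.

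Itpr1, the type 1 IP3 receptor, had 140.2 TPM in VSMCs against 5.51 TPM in mcPCs, from 154008 and 11692 reads. Its log2 ratio of normalized counts was -2.85 (counting interval -2.88 to -2.83), 7.23-fold lower in mcPCs. Among the release channels measured, Itpr1 was by far the most abundant. The TPM of Itpr1 was 72.5 times that of Ryr2 in VSMCs and 149.6 times in mcPCs.

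The store-operated entry pair stood apart from the other members. Stim1, the calcium sensor of the store membrane, had 125.6 TPM in VSMCs against 21.3 TPM in mcPCs, from 46814 and 16369 reads, and a log2 ratio of normalized counts of -0.73 (counting interval -0.75 to -0.70). It was 1.66-fold lower in mcPCs. Orai1, the pore of the entry channel, had 14.7 TPM in VSMCs against 8.65 TPM in mcPCs from similar numbers of reads, 1635 and 1775, and a log2 ratio of 1.06 (counting interval 0.97 to 1.16). It was 2.09-fold higher in mcPCs on normalized counts, and the counting interval includes the 2-fold limit.

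The sign for Orai1 depends on the scale, as its lower TPM in mcPCs shows. Erythrocyte transcripts, of which 20 entries were matched, held 66.3% of the TPM in mcPCs and 0.873% in VSMCs, and TPM sums to the same total in each sample. On TPM (pseudocount 0.1) the median log2 ratio of all genes was -1.72, and Orai1 had a log2 ratio of -0.76. Relative to the median gene, without a pseudocount, the TPM ratio of Orai1 was 1.15. Counts scaled to the same total gave 0.49, and counts scaled after erythrocyte genes had been left out gave 1.22.

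**Figure D2:**
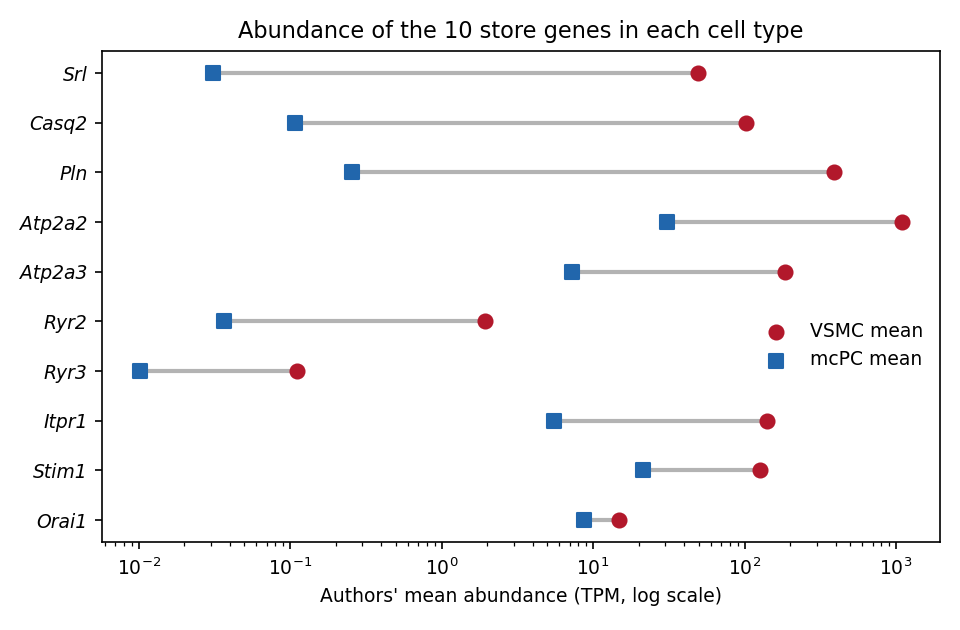
Authors' mean abundance (TPM, log scale) of the 10 genes in VSMCs (circles) and mcPCs (squares), joined by a line for each gene; no error bars are drawn, since single samples were not used here. The lines are longest for Srl, Casq2 and Pln and shortest for Orai1, and Atp2a2 is highest in each cell type.

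The order of abundance was different in each cell type. In VSMCs it was, from the highest TPM down, Atp2a2, Pln, Atp2a3, Itpr1, Stim1, Casq2, Srl, Orai1, Ryr2 and Ryr3, and the counting intervals of no neighbours in this order overlapped. In mcPCs the order was Atp2a2, Stim1, Orai1, Atp2a3, Itpr1, Pln, Casq2, Ryr2, Srl and Ryr3. There the intervals of Ryr2 (0.0305 to 0.0441 TPM) and Srl (0.0212 to 0.0438 TPM) overlapped and those of the other neighbours did not. Pln made up 18.5% of the members' summed TPM in VSMCs and 0.345% in mcPCs, whereas Stim1 made up 5.996% and 28.8%, and Orai1 0.703% and 11.7%. The 10 genes together came to 2095 TPM in VSMCs against 74.1 TPM in mcPCs. These sums are parts of a total of which erythrocyte transcripts held 66.3% in mcPCs and 0.873% in VSMCs.

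Close relatives of the members, some of them named after their values were seen, show which gene of each family the mRNA came from. In the calsequestrin family Casq2 made up 91.7% of the TPM in VSMCs and 7.67% in mcPCs, where Casq1, the skeletal muscle type, made up 92.3%. Casq1 itself was not higher in mcPCs, with 9.26 TPM in VSMCs, 1.29 TPM in mcPCs and a log2 ratio of normalized counts of -1.02. In the ryanodine receptor family, Ryr2 made up 91.2% in VSMCs and 22.5% in mcPCs, and Ryr1, the skeletal muscle type, 3.61% and 71.2%. The whole family came to only 2.12 TPM in VSMCs against 0.164 TPM in mcPCs.

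The other families kept their main type, apart from the ORAI channels. Atp2a2 was 85.5% of SERCA mRNA in VSMCs and 79.4% in mcPCs, with Atp2a3 at 14.5% and 18.8% and Atp2a1, the pump of fast skeletal muscle, at 0.0225% and 1.88%. Itpr1 was 99.7% of the IP3 receptor mRNA measured in VSMCs and 79.7% in mcPCs, with Itpr3 as the remainder, and Itpr2 was not analysed here. Stim1 was 95.3% and 76.8% of STIM mRNA, with Stim2 as the remainder. Of ORAI mRNA, Orai3 was the largest part in VSMCs, at 58.8% against 37.9% for Orai1, and Orai1 the largest in mcPCs, at 52.3% against 30.6% for Orai3, while Orai2 was 3.23% and 17.2%. The TPM of Stim1 was 8.53 times that of Orai1 in VSMCs and 2.47 times in mcPCs. On normalized counts, Itpr3, Atp2a1, Orai2 and Stim2 were at least 2-fold higher in mcPCs, with log2 ratios of 3.30, 3.18, 2.95 and 1.87. Itpr3 (0.478 TPM in VSMCs, 1.40 in mcPCs) and Atp2a1 (0.286 and 0.732) lay below 0.8 TPM in VSMCs, where the authors removed genes. The part of other cells in these levels was not tested. Orai3 was at -0.35.

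**Figure D3:**
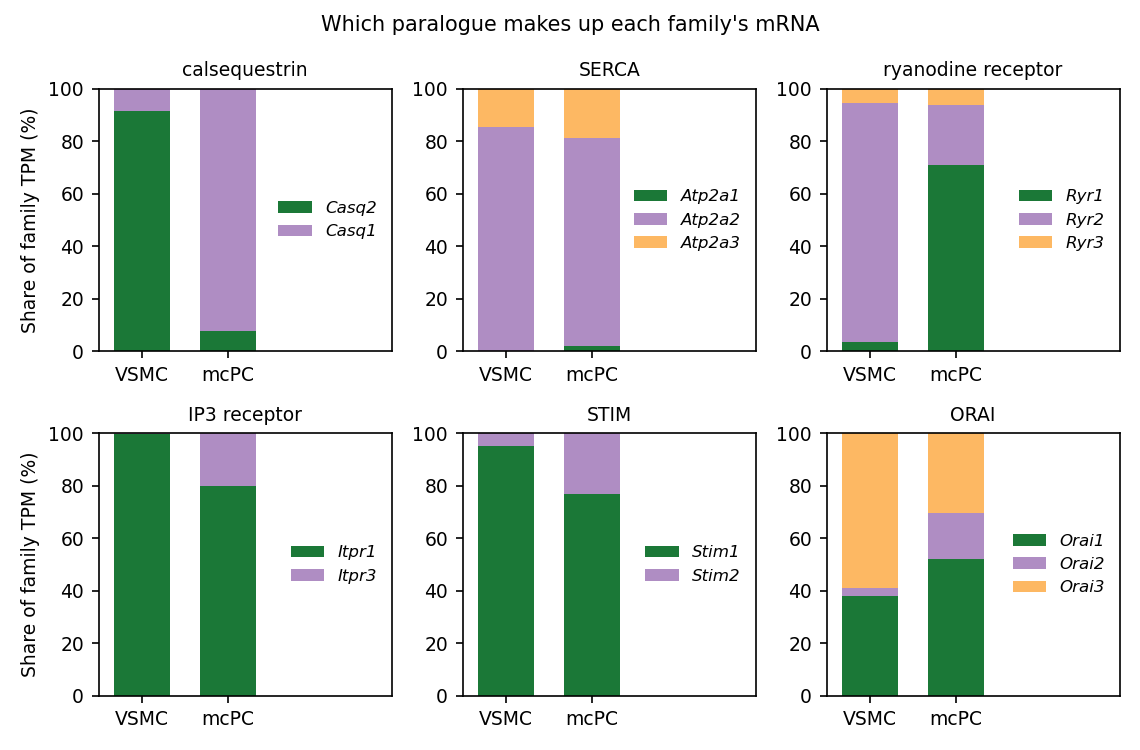
Share of the summed TPM of each gene family (%) that each listed gene makes up, in VSMCs and in mcPCs, with 1 panel per family and 1 colour per gene. The main type differs between the cell types for the calsequestrins (Casq2 and Casq1), the ryanodine receptors (Ryr2 and Ryr1) and the ORAI channels (Orai3 and Orai1), and is the same for SERCA, IP3 receptor and STIM. In mcPCs the calsequestrins sum to only 1.40 TPM and the ryanodine receptors to 0.164 TPM, and the part of other cells there was not tested.

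Effective transcript lengths, which change when a gene's reads shift between longer and shorter transcripts, differed for a few members. The authors' mean length was 3074 bases in VSMCs and 3458 bases in mcPCs for Stim1, a log2 difference of 0.17, larger in size than that of 96.6% of all genes. The mean length was 8954 and 9432 bases for Itpr1 (0.08) and 4524 and 4686 bases for Atp2a2 (0.05). Only 24.2% of all genes differed by over 0.001. Among those, the percentile of the size was 86.1 for Stim1, 68.3 for Itpr1 and 58.4 for Atp2a2. For the other members the log2 difference was below 0.01. Which transcripts lie behind these differences was not analysed here.

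The members also vary in the sequence just before their start. RefSeq (GRCr8) gives 10 start regions for 9 of the members, with 2 for Ryr3, and Srl was not matched. In the 250 bases upstream of the start, the number of CG dinucleotides was 3 for Pln and 5 for Casq2, against a median of 5 over the 33469 regions of the table. It was 9 for Itpr1, 23 for Ryr2, 24 for Stim1, 27 for Atp2a3, 33 for Orai1 and 45 for Atp2a2, and 29 and 3 for the starts of Ryr3. The upstream regions of the 2 matched genes with log2 ratios below -8, and of the most abundant member and the member highest in mcPCs, are printed 5′ to 3′ up to the base before the start, with each CG in capitals. Casq2 lies at chr2:192214306-192214555, plus strand; Pln at chr20:33172244-33172493, plus strand; Atp2a2 at chr12:39733269-39733518, plus strand; and Orai1 at chr12:39209031-39209280, minus strand.
Casq2: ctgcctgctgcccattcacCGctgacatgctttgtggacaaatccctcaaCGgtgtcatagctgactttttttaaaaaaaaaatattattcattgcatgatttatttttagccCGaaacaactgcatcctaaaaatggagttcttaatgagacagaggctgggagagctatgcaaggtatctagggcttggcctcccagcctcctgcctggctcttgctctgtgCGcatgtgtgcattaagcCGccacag
Pln: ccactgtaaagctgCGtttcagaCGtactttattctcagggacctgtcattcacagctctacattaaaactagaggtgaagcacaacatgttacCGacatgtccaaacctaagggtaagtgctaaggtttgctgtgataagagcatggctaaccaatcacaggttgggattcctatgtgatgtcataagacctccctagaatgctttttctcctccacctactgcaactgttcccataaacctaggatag
Atp2a2: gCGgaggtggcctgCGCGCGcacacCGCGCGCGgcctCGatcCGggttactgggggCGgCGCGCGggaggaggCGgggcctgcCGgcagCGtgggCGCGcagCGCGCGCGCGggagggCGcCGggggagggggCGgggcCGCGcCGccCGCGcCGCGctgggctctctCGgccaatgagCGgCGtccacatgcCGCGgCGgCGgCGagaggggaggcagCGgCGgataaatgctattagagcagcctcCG
Orai1: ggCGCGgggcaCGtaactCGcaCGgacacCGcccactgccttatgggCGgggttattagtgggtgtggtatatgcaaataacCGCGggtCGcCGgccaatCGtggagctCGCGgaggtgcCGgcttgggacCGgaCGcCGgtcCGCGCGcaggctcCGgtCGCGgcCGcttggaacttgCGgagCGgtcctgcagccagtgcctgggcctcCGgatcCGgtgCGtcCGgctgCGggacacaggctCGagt
The regions were searched on both strands for letters bound by factors that are known in muscle genes or at common promoters. A MEF2 site was found in Casq2 alone, as ttatttttag from 149 to 140 bases upstream of the start, and in 2.96% of all regions. No region of a member held a CArG box, the element of serum response factor, in its strict form CCWWWWWWGG (W is A or T), which 1.497% of all regions hold. Looser forms of that box were not searched. TATAAA, which 12.9% of all regions hold, was in no region of a member either. The E-box CANNTG was in 8 of the 10 regions and in 65.5% of all, TGGGAA (the core of the RBPJ site) in those of Pln and Itpr1 and in 22.1% of all, and GGGCGG (the GC box) in 7 of the 10 and in 30.5% of all. Matches to different motifs did not overlap in a member. These are matches of letters in a short window, and binding was not measured.

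Beyond the 10 genes, a list of 104 genes of calcium storage, release and removal had 91 entries in the dataset, with Calm2 present in 2. Of these, 27 (29.7%) were at least 2-fold higher in VSMCs and 14 (15.4%) at least 2-fold higher in mcPCs, against 13.9% and 22.0% of all genes, and the median log2 ratio was -0.20, against 0.01. Among those higher in mcPCs, Atp2a1, Ryr1, Jsrp1, Itpr3, Plcd4, Atp2b2, Atp2b3, Camk2a and Camk2b lay below 0.8 TPM in VSMCs. The authors removed genes below that level, since endothelial transcripts were more abundant in mcPCs. With that filter 26 stayed at least 2-fold higher in VSMCs, as did 15.8% of all genes. The part of other cells in these ratios was not tested. On TPM the number higher in VSMCs would be 71 of 91, where 72.3% of all genes are, and with counts scaled to the same total 43, where 28.8% are. The examples below are the most abundant and the most different genes of each group, and any other gene is named after its value was seen. Each count by group below stands against the same 13.9% and 22.0% of all genes, and the groups are small.

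Other proteins of the reticulum lumen did not share the ratios of Casq2 and Srl. Of 9 luminal buffers and chaperones, 8 lay between the 2-fold limits, and Casq1 at -1.02 was the exception. Hrc, named after its values were seen, had 92.4 TPM in VSMCs against 16.0 TPM in mcPCs, with a log2 ratio of -0.69. Calr (calreticulin) had 393.9 TPM in VSMCs against 184.2 TPM in mcPCs, with a log2 ratio of 0.73. Hspa5, the chaperone BiP, had 432.4 and 81.5 TPM and a ratio of -0.59, and Pdia3, a disulfide isomerase, had the highest ratio of the group at 0.79. All 5 genes of the CREC family of calcium-binding proteins also lay between the limits, from Calu (-0.57) to Rcn3 (0.89). Per SERCA2 pump message there was 0.362 of Calr in VSMCs and 5.97 in mcPCs, in TPM. The TPM of Calr was 3.84 times that of Casq2 in VSMCs and 1719 times in mcPCs.

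Among pumps and pump regulators, Atp2a1 had the highest ratio at 3.18, from only 0.286 and 0.732 TPM. Atp2c1, the calcium pump of the Golgi, was at -0.17. Of the 4 regulators with a value, Ppp1r1a, an inhibitor of protein phosphatase 1, was higher in VSMCs with a log2 ratio of -2.05, and the most abundant, Hax1, was at -0.19. Nol3 had the highest ratio of the 4, at 0.40. The small SERCA inhibitor sarcolipin (Sln) was not analysed here.

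In the ryanodine receptor complex, 3 of 9 entries were at least 2-fold higher in VSMCs. Akap6, the anchoring protein that places protein kinase A at the receptor, had 48.6 TPM in VSMCs against 0.771 TPM in mcPCs, with a log2 ratio of -4.16. The entries of Calm2 (calmodulin) were at -1.47 and -1.13, and reads of near-identical calmodulin genes may be split between them. Ryr1 was highest at 2.40, from 0.0764 and 0.116 TPM.

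Of 6 genes listed for the junctions of the store with the plasma membrane, 3 were at least 2-fold higher in VSMCs and 1 in mcPCs. Jph2, the junctophilin of cardiac and smooth muscle, had 141.8 TPM in VSMCs against 1.57 TPM in mcPCs, and a log2 ratio of -4.66, lower than that of Ryr2. Tmem38a, a potassium channel of the reticulum membrane, was at 0.54, and Jsrp1 at 1.06 was the highest of the 6 genes, from 0.395 and 0.226 TPM.

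All 3 surface channels that work with calcium sparks were at least 2-fold higher in VSMCs. Kcnmb1, the beta subunit of the large-conductance potassium channel, had 414.4 TPM in VSMCs against 1.1 TPM in mcPCs, with a log2 ratio of -6.73. Its pore subunit Kcnma1 had 19.0 and 0.0599 TPM and a ratio of -6.43. Cacna1c, the voltage-gated calcium channel pore, was nearer to the limit at -1.05, with 63.3 and 8.65 TPM.

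On the IP3 side, 2 of 7 genes around the receptor were at least 2-fold higher in VSMCs and 3 in mcPCs. Mrvi1, the protein through which cGMP-dependent kinase restrains IP3 receptors, had 330.9 TPM in VSMCs against 16.0 TPM in mcPCs and a log2 ratio of -2.57, close to that of Itpr1. Its relative Lrmp lay at the other end, at 4.50, with 1.59 and 10.5 TPM. Erp44, the most abundant of the group in mcPCs with 23.1 TPM, was at 0.80. Of the 11 genes that make or break down IP3, 4 were at least 2-fold higher in VSMCs and 1 in mcPCs. The phospholipase Plcb1 was lowest at -2.66, and the phosphatase Inpp5a, the most abundant in VSMCs with 222.2 TPM, was at -2.45. Plcd4 was highest at 1.10, from 0.709 and 0.452 TPM. Plcg1, the most abundant in mcPCs with 20.9 TPM, was at 0.58.

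Of 10 other genes of store-operated entry, Esyt2, a tether between the reticulum and the plasma membrane, was the only one at least 2-fold higher in VSMCs, at -2.11, and 3 were at least 2-fold higher in mcPCs. These are 10% and 30% of the group, near the 13.9% and 22.0% of all genes. Orai2 had the highest ratio at 2.95, with 1.25 TPM in VSMCs against 2.84 TPM in mcPCs, and Stim2 was at 1.87, with 6.20 and 6.45 TPM. Tmco1, a channel that lets calcium out of an overfilled store, was the most abundant of the group in mcPCs with 37.0 TPM and had a ratio of 0.59.

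Calcium leaves the cell through plasma membrane pumps and sodium-calcium exchangers, and 4 of 7 such genes were at least 2-fold higher in VSMCs and 2 in mcPCs. Slc8b1, listed with them, codes for the exchanger of mitochondria and was at -0.15, with the highest TPM of the group in mcPCs (11.1). Slc8a2 had the lowest ratio at -4.22, with 58.5 and 0.888 TPM, and Atp2b4, the most abundant pump in VSMCs with 244.8 TPM, was at -2.96. Atp2b3 was highest at 2.07, from 0.184 and 0.231 TPM. Of 8 genes of mitochondrial uptake, the uniporter pore Mcu alone passed 2-fold, at -1.76, and the most abundant, Smdt1, was at -0.11. Ccdc109b had the highest ratio of these 8, at 0.74. Of 9 genes of calcium-dependent kinases and calcineurin, 4 were higher in VSMCs and 2 in mcPCs, from Rcan2, a calcineurin regulator with 254.5 TPM in VSMCs, at -4.12, to Camk2a, a kinase abundant in neurons, at 3.83. Ppp3r1, the most abundant of these 9 in mcPCs with 13.2 TPM, was at -0.66.

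**Figure D4:**
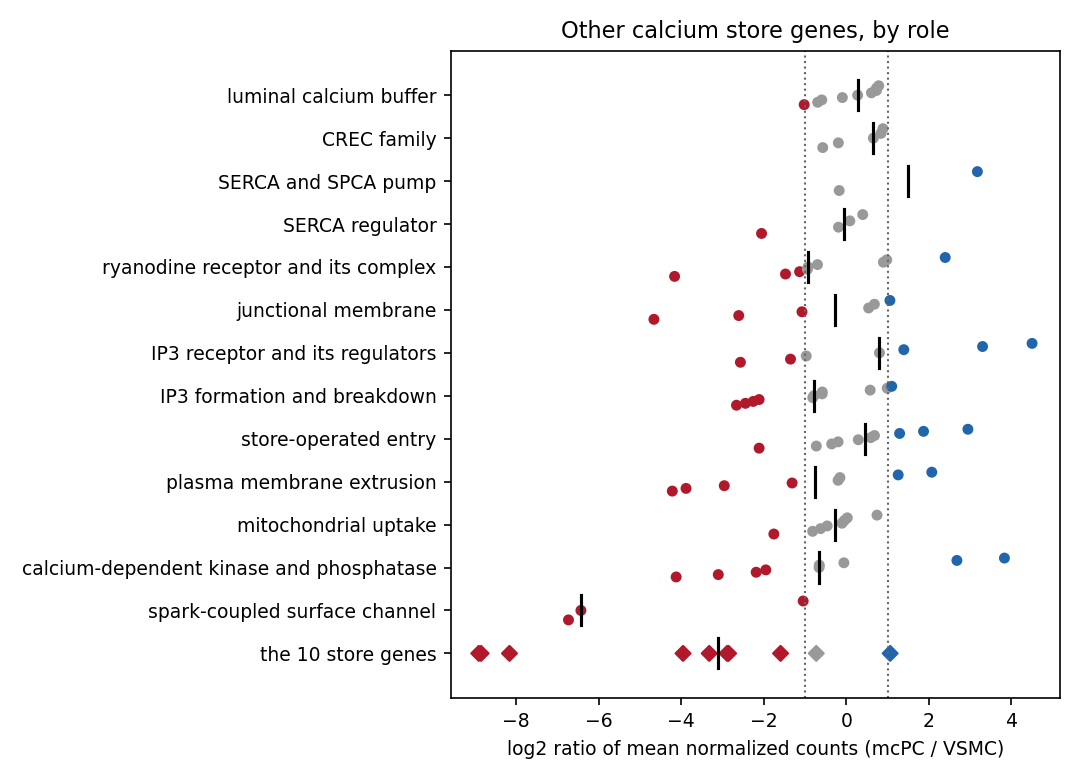
log2 ratio of the authors' mean normalized counts (mcPC over VSMC) for 91 entries of other calcium store genes by role, and for the 10 store genes (diamonds, bottom). Red points are at least 2-fold higher in VSMCs, blue points at least 2-fold higher in mcPCs, and short black lines are group medians; luminal buffers and the CREC family cluster near 0, while Casq2, Pln and Srl lie left of every other point.

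The labelled cell types were checked against their markers. Beside the smooth muscle genes, 8 of 11 pericyte entries were at least 2-fold higher in mcPCs, among them Vtn (vitronectin) at 3.50 and, named after their values were seen, Kcnj8 and Abcc9, the subunits of a potassium channel, at 6.17 and 6.52. Rgs5, a marker of both kinds of mural cell, was at -0.06, and Notch3, with 1197.5 and 136.9 TPM, was the 1 entry at least 2-fold higher in VSMCs, at -1.31. Most markers of other cells with a value were also at least 2-fold higher in mcPCs on normalized counts, against 22.0% of all genes. This held for 8 of 11 endothelial, 5 of 6 astrocyte, 6 of 7 oligodendrocyte, 5 of 5 microglial and 7 of 7 neuronal genes with a value, whose summed abundance in mcPCs was 237.7, 22.5, 20.7, 9.45 and 23.8 TPM, against 612.7, 14.6, 19.8, 0.683 and 3.44 TPM in VSMCs. The endothelial sum is carried by Esam (487.3 TPM in VSMCs, 183.9 in mcPCs) and Slc2a1 (114.6 and 23.9), neither of which was at least 2-fold higher in a cell type, and the astrocyte sum in VSMCs by Aldoc (13.6 of 14.6 TPM), which was not either. All marker sums are parts of a TPM total of which erythrocyte transcripts held 66.3% in mcPCs and 0.873% in VSMCs. Cldn5, a tight junction gene of endothelial cells named after its values were seen, had 0.643 and 15.4 TPM and a log2 ratio of 6.34. Markers without a value, among them Pecam1, Rbfox3, Aldh1l1 and Itgam, were not analysed here. Casq2, Srl, Pln and Ryr2 are known from striated muscle as well. Of 20 striated muscle markers 7 had a value, with a summed abundance of 114.3 TPM in VSMCs against 4.66 TPM in mcPCs, of which Ldb3, a Z-disc protein, made up 110.9 and 3.60 TPM, and the highest of the others was Acta1 with 1.1 TPM in VSMCs. The part of these other cells in the mcPC levels of Orai1, Stim1, Atp2a2 and the remaining members was not tested, nor was it for the relatives and the wider list.

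The direction of the members was also compared across scales. Srl, Casq2, Pln, Atp2a2, Atp2a3, Ryr2, Itpr1 and Stim1 were lower in mcPCs on every scale tried. Of all genes, 49.3% were lower in mcPCs on normalized counts and 41.0% with counts scaled without erythrocyte genes. That share was 69.3% with counts scaled to the same total and 86.3% on TPM, so direction alone says little there. Their log2 ratios ranged from -10.09 to -8.21 for Pln, from -8.96 to -6.55 for Casq2 and from -9.46 to -5.60 for Srl, where the values nearest to 0 for Casq2 and Srl came from a pseudocount of 1 TPM, well above their level in mcPCs. For Atp2a2 they ranged from -5.14 to -3.11, for Itpr1 from -4.64 to -2.62 and for Stim1 from -2.55 to -0.41.

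**Figure D5:**
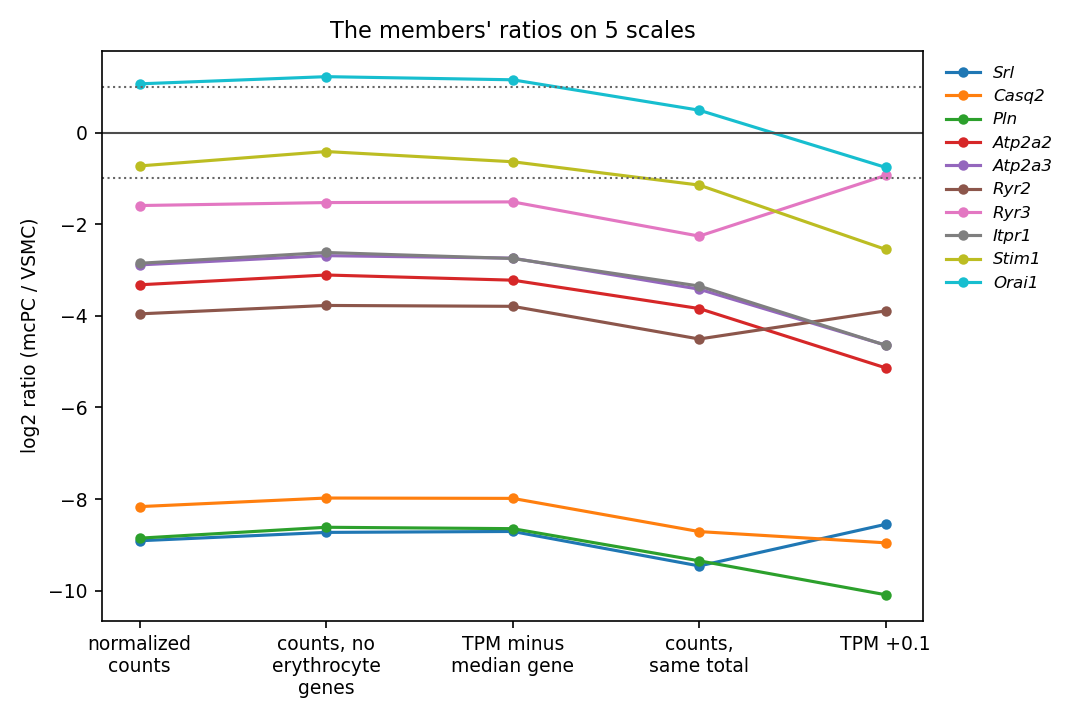
log2 ratio (mcPC over VSMC) of each member on 5 scales, joined by a line for each gene, with dotted lines at 2-fold. From left to right the scales are the authors' normalized counts, counts scaled without erythrocyte genes, TPM minus the median gene without a pseudocount, counts scaled to the same total, and TPM with a pseudocount of 0.1; Orai1 changes sign on the last scale, and Casq2, Srl and Pln stay at or below -7.98 on all 5.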

How the data were processed

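The samples were 3 of VSMCs and 3 of mcPCs, grouped by the cell type of the labels. Reads had been trimmed and filtered by quality (Eoulsan) and quantified by Salmon 0.8.0 against rat transcripts of Ensembl, build Rnor_6.0. The authors added up transcripts to genes (tximport), scaled the counts with DESeq2 and kept genes with a read in each sample. For their final gene set they also removed genes below 0.8 TPM in VSMCs and the transcripts highest in mcPCs, mainly of erythrocytes. Those genes were kept here among the 14607, and Ryr3, with 0.111 TPM in VSMCs, is one of them. The deposited table holds the authors' mean TPM, mean estimated counts, mean normalized counts (a signal value, the counts divided by DESeq2's factors) and mean effective lengths of each cell type. It also holds the authors' own comparison (log2 fold changes, standard errors and p-values), which was not used.

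Mean estimated counts are means per run, since 71.4% and 72.5% of them are whole multiples of 1 read over 12 runs (tolerance 0.02). They were multiplied by 12 to give reads over 3 samples. No test was planned or made, as only means were used. Intervals are exact binomial (ratios, from the reads of both cell types, moved to the normalized scale) and exact Poisson (reads and TPM), at 95%. Ratios of normalized counts have no pseudocount. Alternatives were TPM ratios (pseudocounts 0.1 and 1, and relative to the median of genes with at least 0.8 TPM in VSMCs), counts scaled to the same total with and without erythrocyte genes, filters of 0.8 TPM and 10 reads, and a fold of 4.

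The members, the gene lists and the alternatives were chosen with earlier results of these data known. Named from each group of the wider list were the most abundant gene of each cell type and the genes with the highest and lowest ratio. Genes were matched by symbol; of the 104 wider genes 14 were not matched. Promoter regions are those of RefSeq, GRCr8. Steps were tested on simulated data. The scripts ran in Python 3.11.15 with scipy 1.17.1 for the intervals, pandas 2.3.3 and numpy 2.4.6, and figures were drawn with matplotlib 3.10.9.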

Additional observations from a re-analysis of the deposited data

How the results depend on the processing

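The number of members at least 2-fold higher in VSMCs was 7 to 9 under every scaling and filter tried, against 8; it was 9 with counts scaled to the same total, where Stim1 reached -1.15. The number at least 2-fold higher in mcPCs was 1 and became 0 on TPM with a pseudocount of 0.1 or 1, with counts scaled to the same total and with a fold of 4, since Orai1 is the gene it counts. The median over the members, -3.11, was -4.64 and -4.46 on TPM with a pseudocount of 0.1 and 1, -2.77 on TPM relative to the median gene, -2.99 on the same ratio without a pseudocount (chosen after the data were seen), -3.63 with counts scaled to the same total, -2.90 without erythrocyte genes and -3.32 among genes with at least 0.8 TPM in VSMCs, which leaves out Ryr3. The share of all genes at least 2-fold higher in VSMCs, 13.9%, was 72.3% and 63.2% on TPM with the pseudocounts of 0.1 and 1 and 28.8% with counts scaled to the same total, and 5.72% passed a fold of 4. The wider list had 71 and 66 genes higher in VSMCs on TPM and 43 with counts scaled to the same total, against 27. Orai1 was reversed on TPM, to -0.76 and -0.70. Ryr3 was reversed to 0.94 on TPM relative to the median gene with a pseudocount of 0.1, which is close to or above its level in both cell types, and was -1.51 without the pseudocount.

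No paired analysis was possible because only the mean of each cell type was used; for the same reason no sample or isolation was left out in turn, and what the isolations DN, DL and DK contribute is unknown. Srl and Ryr3 in mcPCs rest on 32 reads each and Casq2 on 54.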
